A study of Mus musculus with 12 samples.

Results

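Neurexins are adhesion molecules of the presynaptic membrane, and neuroligins are their partners on the postsynaptic side. Cerebellins are secreted proteins that bridge neurexins to postsynaptic receptors such as Grid1 across the synaptic cleft. The levels of 8 genes of these families are described here, namely the neurexins Nrxn2 and Nrxn3, the neuroligins Nlgn1, Nlgn2 and Nlgn3, and the cerebellins Cbln1, Cbln2 and Cbln4. They were chosen by gene symbol among the 55335 genes listed in the files, and each of the 8 symbols matched 1 entry. Among the neuroligins, Nlgn2 is known for inhibitory synapses, Nlgn1 for excitatory synapses and Nlgn3 for both. Cbln1 is best known from the cerebellum, and Cbln4 also binds the receptors Dcc and Neo1.

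Forebrain nuclei of mice taken at postnatal day 1 (P1) had been profiled by single-nucleus RNA sequencing after split-pool barcoding, in which fixed nuclei collect their barcode over successive plates. The animals were of the MYT1L S710fsX line, bred to C57BL/6J, which carries a frameshift in Myt1l, a transcription factor of neurons. There were 8 WT libraries (5 male, 3 female) and 4 libraries heterozygous for the allele (Het, 3 male, 1 female), each from 1 animal, so that p-values measure the spread between animals. Genotype, sex and tissue follow the labels. The study's methods give the same numbers of animals per genotype and sex, although a single sentence of its results exchanges the genotype numbers, and its methods also name the prefrontal cortex as the tissue. The animals came from several litters, which the labels do not assign.

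Of 126684 barcodes, 94893 were kept, 55361 from WT and 39532 from Het animals, with 0 barcodes shared between libraries. The median nucleus held 1895 unique molecular identifiers (UMIs, tags that count captured RNA molecules), and a library held between 9730711 and 24345800 UMIs in kept nuclei. Nuclei were grouped into 46 clusters without using the members, and 28 clusters with 71.2% of nuclei were named by marker genes. This gave 17 classes that could be tested. A level is given as CPM, the gene's share of all UMIs of a class in 1 library. Excitatory nuclei are the upper-layer, deep-layer and L6b/subplate-like excitatory neuron (ExN) classes together. Inhibitory nuclei are the medial and caudal ganglionic eminence (MGE, CGE), olfactory-type, D1 and D2 inhibitory neuron (InhN) classes together with cluster 10, whose leading genes include Snhg11 and Gm29478. Outside the naming lists, the GABA-synthesis gene Gad1 fitted these sets, at 216 CPM in inhibitory and 6.38 CPM in excitatory WT nuclei. Cluster 10 met the naming rule for cholinergic neurons but is called by its number, since finer clusters put 3049 of its nuclei (90.8%) in an unnamed cluster and 132 in a cholinergic-like one, which held 61 of its 71 WT UMIs of the acetylcholine-synthesis gene Chat. Gad1 stood at 170 CPM in cluster 10. The glutamate transporter gene Slc17a6 stood there at 58.3 ± 74.3 CPM (SD, n = 8), from 19.5 to 240 CPM. Its WT mean was 51.9 CPM in excitatory nuclei and 9.43 CPM in inhibitory nuclei without cluster 10. A second such gene, Slc17a7, stood at 1.21 CPM in cluster 10 and 15.1 CPM in excitatory nuclei. The level of Myt1l itself was 1419 ± 111 CPM over the 8 WT and 1566 ± 53.9 CPM over the 4 Het libraries (mean ± SD), which does not check the genotype because a frameshift need not lower the level.

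RefSeq promoter windows (GRCm38.p6, 250 bases before a transcript start) were held for 4 members, in 7 windows in all. The motif AAGTT, known as the core bound by MYT1L, or its reverse complement AACTT, was searched on both strands and found in 2 of the 7 windows, against 35.3% of 32851 windows of the same length. The windows with a match belong to Nrxn3 and Nlgn1. They are shown because these members carried the clearest opposite difference between excitatory and inhibitory nuclei, and are written 5′ to 3′ on the gene's strand with the motif in capitals. A match is a run of letters and says nothing of binding.
Nrxn3, chr12:88794254-88794503, plus strand: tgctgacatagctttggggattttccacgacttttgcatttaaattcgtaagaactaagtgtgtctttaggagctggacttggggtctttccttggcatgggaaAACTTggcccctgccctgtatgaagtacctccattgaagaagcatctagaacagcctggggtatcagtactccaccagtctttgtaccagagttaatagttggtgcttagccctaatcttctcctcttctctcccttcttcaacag
Nlgn1, chr3:26153987-26154236, minus strand: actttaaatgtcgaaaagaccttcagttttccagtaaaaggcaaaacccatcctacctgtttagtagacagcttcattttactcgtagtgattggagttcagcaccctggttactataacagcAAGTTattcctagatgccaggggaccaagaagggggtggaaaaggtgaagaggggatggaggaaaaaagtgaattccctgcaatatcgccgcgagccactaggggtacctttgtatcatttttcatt

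The members lie on 8 different chromosomes of GRCm38 (GENCODE M21). Nrxn2 (ENSMUSG00000033768.17) spans chr19:6418731-6544169 on the plus strand and Nrxn3 (ENSMUSG00000066392.12) chr12:88722876-90334935, also on the plus strand, a gene of 1612060 bases whose identifier was matched without its version. The neuroligins are Nlgn1 (ENSMUSG00000063887.13) at chr3:25426215-26332460 on the minus strand, Nlgn2 (ENSMUSG00000051790.15) at chr11:69823122-69837784 on the minus strand and the X-linked Nlgn3 (ENSMUSG00000031302.16) at chrX:101299168-101325963. The cerebellins are short genes, with Cbln1 (ENSMUSG00000031654.16) at chr8:87468405-87472609, Cbln2 (ENSMUSG00000024647.14) at chr18:86711110-86718283 and Cbln4 (ENSMUSG00000067578.3) at chr2:172036233-172043466. Nlgn2, Cbln2 and Cbln4 overlap no other annotated gene. Nrxn2 overlaps 3 genes on the other strand, Nrxn3 overlaps 5 genes of which 3 share its strand, Nlgn1 overlaps 4, Nlgn3 overlaps Gm21986 on its own strand, and Cbln1 overlaps Gm2694 on the other strand. The sources used here do not give how counting treated strand and overlap, so these 5 members may share UMIs with their neighbours.

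Levels across cell classes were compared first in WT animals. Of the 5 members detected in every class, Nrxn3 varied most, 62.5-fold from 23660 ± 4665 CPM in olfactory-type InhN-like nuclei to 379 ± 147 CPM in upper-layer ExN-like nuclei (SD, n = 8). Nlgn1 varied 12.3-fold with another order, from 6834 ± 540 CPM in oligodendrocyte lineage-like nuclei to 558 ± 170 CPM in Cajal-Retzius-like nuclei. Nrxn2, Nlgn2 and Nlgn3 were detected in every class and varied 5.21-fold, 4.03-fold and 6.89-fold between the extreme class means. The cerebellins were sparse, with 484, 1385 and 123 UMIs of Cbln1, Cbln2 and Cbln4 in all 8 WT libraries together, and their highest class means lay in 3 different classes. Over neighbours in the order of each gene, 0 of 128 pairs differed at an adjusted p under 0.05 (exact paired permutation test over libraries, two-sided). Of these pairs 17 had an unadjusted p under 0.05. With 8 libraries the smallest p is 0.0078, which 8 pairs reached, and at least 20 pairs would have had to reach it to pass. A p that misses the threshold does not show that values are alike.

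**Figure D1:**
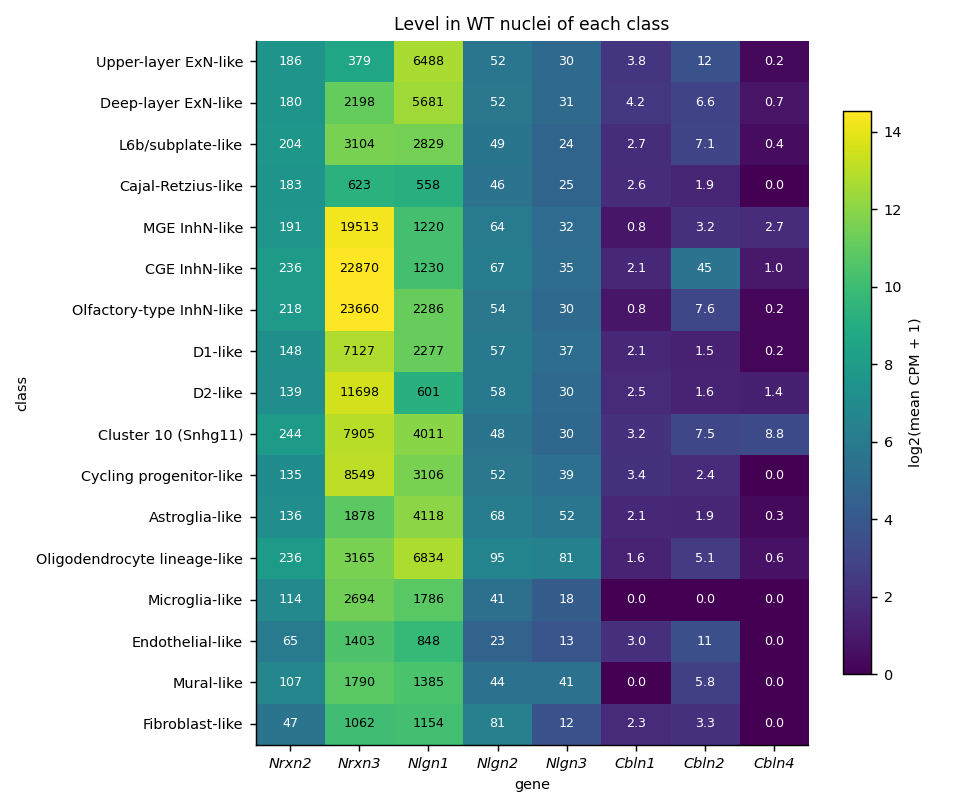
WT mean level of each member (columns) in the 17 tested classes (rows), printed in CPM and coloured by log2(mean CPM + 1). Nrxn3 is brightest in the MGE, CGE and olfactory-type InhN-like rows, and the 3 cerebellin columns stay dark but for Cbln2 in CGE InhN-like nuclei.

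Among the neurexins, Nrxn3 had its 4 highest means in InhN-like classes. In MGE InhN-like nuclei its level ran from 17313 CPM in the lowest WT library over a median of 19785 to 22485 CPM in the highest, and in CGE InhN-like nuclei from 20356 to 26310 CPM. The D2-like class reached 11698 ± 980 CPM and the D1-like class 7127 ± 401 CPM (SD, n = 8), and no library of the MGE class overlapped the D2-like class. Within excitatory nuclei, Nrxn3 stood at 2198 ± 237 CPM in deep-layer and at 3104 ± 555 CPM in L6b/subplate-like nuclei, above the upper-layer class in every WT library. Free RNA was not subtracted, and the microglia-, mural-, endothelial- and fibroblast-like classes, which are not neurons, held 1062 to 2694 CPM of Nrxn3. The deep-layer, astroglia-like, Cajal-Retzius-like and upper-layer means lay within or below that range. Upper-layer libraries, at 231 to 716 CPM, lay below all of it, so the range is not 1 background level shared by all classes. Whether the deep-layer, astroglia-like, Cajal-Retzius-like and upper-layer means are background is not settled by this measure. Cycling progenitor-like nuclei stood at 8549 ± 2469 CPM, between the D2-like class and cluster 10. Nrxn2 showed no such split. Its highest means were 244 ± 43.3 CPM in cluster 10, 236 ± 51.9 CPM in CGE InhN-like and 236 ± 24.6 CPM in oligodendrocyte lineage-like nuclei, and the lowest were 64.7 ± 11.2 CPM in endothelial-like and 46.9 ± 12.6 CPM in fibroblast-like nuclei. The 4 non-neuronal classes named above held 46.9 to 114 CPM of Nrxn2.

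Among the neuroligins, Nlgn1 was highest in oligodendrocyte lineage-like nuclei (6082 to 7805 CPM over WT libraries), upper-layer ExN-like nuclei (6224 to 6857 CPM) and deep-layer ExN-like nuclei (5142 to 6158 CPM). Astroglia-like nuclei followed at 4118 ± 142 CPM, below every deep-layer value. Of the InhN-like classes, MGE stood at 1220 ± 196 CPM, CGE at 1230 ± 338 CPM and D2-like nuclei at 601 ± 198 CPM (SD, n = 8). D1-like nuclei stood higher at 2277 ± 187 CPM (SD, n = 8), and olfactory-type nuclei ran from 1292 to 2801 CPM over WT libraries. Cluster 10, counted as inhibitory, stood at 4011 ± 443 CPM (SD, n = 8), near the astroglia-like mean. The excitatory L6b/subplate-like class ran from 2528 to 3224 CPM, below every WT value of cluster 10. The D1-like and D2-like values did not overlap in any WT library, although WT male 4 held only 15 D1-like and 11 D2-like nuclei. By the same measure the microglia-, mural-, endothelial- and fibroblast-like classes held 848 to 1786 CPM of Nlgn1. The MGE, CGE, D2-like and Cajal-Retzius-like means lay within or below that range. MGE libraries, at 949 to 1492 CPM, lay above every D2-like value, 357 to 857 CPM, and CGE libraries, at 826 to 1644 CPM, overlapped these. This measure does not settle whether the MGE, CGE, D2-like and Cajal-Retzius-like means are background. Nlgn2, the neuroligin of inhibitory synapses, was not highest in InhN-like classes. Its highest means were 94.6 ± 9.88 CPM in oligodendrocyte lineage-like, 80.8 ± 14.3 CPM in fibroblast-like and 67.6 ± 17.4 CPM in astroglia-like nuclei, and the neuronal classes lay between 46.0 and 67.5 CPM. Of these, the CGE, MGE, D2-like, D1-like and olfactory-type means, 54.2 to 67.5 CPM, were above the excitatory class means, 49.4 to 52.3 CPM. The ranges over libraries overlapped, and cluster 10 stood at 48.1 CPM. The microglia-, mural-, endothelial- and fibroblast-like classes held 23.4 to 80.8 CPM, a range that takes in the neuronal and astroglia-like means of Nlgn2. Its upper end is the fibroblast-like class, with 274.5 UMIs and above the mean of 55.6 CPM over all nuclei. The microglia-, mural- and endothelial-like classes stood at 40.9, 43.9 and 23.4 CPM, below the neuronal means, from 23, 9 and 36 UMIs. Whether the neuronal and astroglia-like means are background is not settled by this measure. Nlgn3 was also highest in glia, at 81.2 ± 20.2 CPM in oligodendrocyte lineage-like and 51.7 ± 12.8 CPM in astroglia-like nuclei. The first of these was the higher in all 8 WT libraries, although the ranges of the classes overlapped. The microglia-, endothelial- and fibroblast-like classes held 18.2, 13.0 and 11.8 CPM of Nlgn3 from 8, 16.5 and 40.3 UMIs, below its neuronal means of 24.5 to 36.9 CPM. Mural-like nuclei stood above these means at 41.2 CPM, from 7.5 UMIs and with a range of 0 to 104 CPM over 6 libraries. Whether the neuronal means of Nlgn3 are background is not settled by this measure either.

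**Figure D2:**
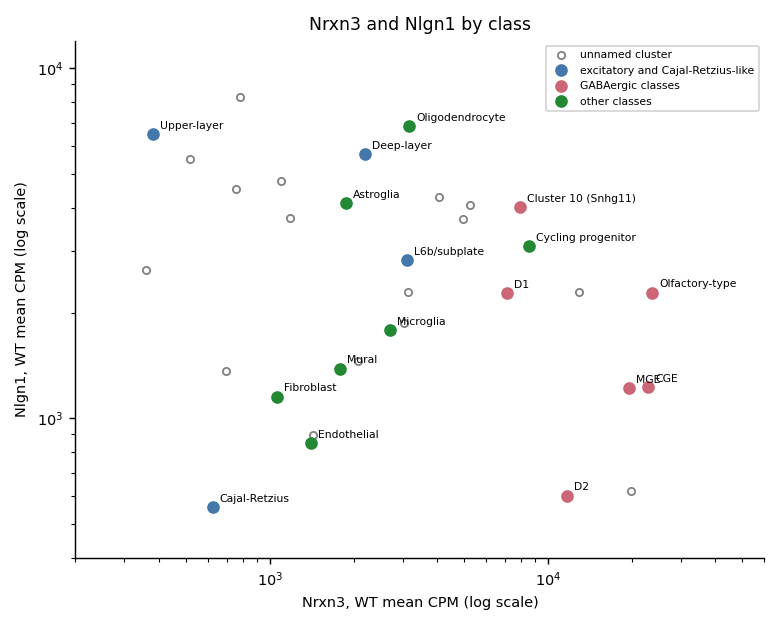
WT mean CPM of Nrxn3 (x axis, log scale) against Nlgn1 (y axis, log scale), with 1 filled point per tested class and 1 open point per unnamed cluster. MGE, CGE and olfactory-type InhN-like nuclei lie to the right at 19513 to 23660 CPM of Nrxn3, while upper-layer ExN-like nuclei lie at the upper left at 379 CPM of Nrxn3 and 6488 CPM of Nlgn1.

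Among the named classes, Cbln2 was highest in CGE InhN-like nuclei, from 22.3 over a median of 39.6 to 88.1 CPM in WT libraries, and this class did not overlap the next, upper-layer ExN-like nuclei at 6.33 to 19.6 CPM. In MGE InhN-like nuclei it stood at 3.18 ± 1.65 CPM (SD, n = 8). Clusters that could not be named also carried it. Cluster 3, unnamed and led by Tshr, Glis3 and Dkk2, held 30.4% of all WT Cbln2 UMIs in 6.87% of the nuclei. A further 14.2% lay in cluster 6, an upper-layer ExN-like cluster led by Ntf3, and 11.5% in cluster 7, unnamed and led by Il1rapl2 and Nr4a3. Cluster 17, the CGE InhN-like class, held 7.58% of the UMIs, and cluster 21, unnamed and led by Nr4a2, held 5.34%. Of the non-neuronal classes used above as background, microglia-like nuclei held no Cbln2 UMI, which allows up to 5.19 CPM over the 8 WT libraries by counting error alone. Fibroblast-like nuclei stood at 3.26 ± 4.87 CPM (SD, n = 8), mural-like nuclei at 5.81 CPM from 1 UMI, and endothelial-like nuclei at 10.6 ± 16.8 CPM (SD, n = 8) from 13 UMIs, with 3 libraries at 0. The endothelial-like mean holds WT male 1 at 50.5 CPM, and the median was 6.45 CPM. Upper-layer ExN-like nuclei, at 11.7 ± 4.17 CPM (SD, n = 8), had a mean above these non-neuronal means, but their range lay within the endothelial-like one. D1-like nuclei, at 0 to 3.83 CPM, and astroglia-like nuclei, at 0 to 2.78 CPM, lay below every upper-layer WT value. Within the upper-layer class, cluster 6 stood at 26.1 ± 8.85 CPM and cluster 5 at 0.724 ± 0.833 CPM (SD, n = 8). Whether the means of the named classes other than CGE are background is therefore not settled by this measure.

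Of the 123 WT UMIs of Cbln4, 35.8% lay in cluster 10, 2.66% of the nuclei, at 8.77 ± 6.40 CPM (SD, n = 8) and at 0 in 1 library. Of these 44 UMIs, 41 lay in the unnamed finer cluster and 0 in the 67 WT nuclei of the cholinergic-like finer cluster. Cluster 32, unnamed and led by Tmem132d, Ndst4 and Eomes, held 14.6% of the UMIs in 0.769% of the nuclei, at a mean of 16.1 CPM and a range of 0 to 31.3 CPM over 7 libraries. Of the MGE InhN-like clusters, cluster 39, led by Nos1, Tacr1 and Npy, held 5.69% in 0.350% of the nuclei, at 15.1 ± 16.5 CPM (SD, n = 8) from 7 UMIs. Both of these means were above that of cluster 10, with overlapping ranges. In upper-layer ExN-like nuclei only 3 UMIs of Cbln4 were seen in 8400 WT nuclei. Cbln1, the founding cerebellin, was low in every named class, with its highest class mean of 4.17 ± 0.931 CPM in deep-layer ExN-like nuclei (SD, n = 8). Endothelial-like nuclei stood at 3.03 ± 4.90 CPM from 4 UMIs and fibroblast-like nuclei at 2.27 ± 2.66 CPM (SD, n = 8), and microglia- and mural-like nuclei held no UMI, so that the Cbln1 means of the named classes are not told apart from background. Of its 484 WT UMIs, 18.6% lay in the unnamed cluster 7, which also carried Cbln2, and 7.44% in cluster 21. Cluster 7 stood at 12.5 ± 3.82 CPM of Cbln1 (SD, n = 8), from 7.21 to 18.5 CPM. Cluster 21 stood at 16.7 ± 16.1 CPM with 2 libraries at 0, and the unnamed cluster 25 at 14.5 ± 13.3 CPM with 3 libraries at 0 (SD, n = 8).

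A direct comparison of excitatory with inhibitory nuclei of the same 8 WT animals called 4 of the 8 members (edgeR's quasi-likelihood test with library as a block, Benjamini-Hochberg adjusted over all genes, adjusted p under 0.05 and a log2 difference of at least 0.2), where 37.8% of the 14696 genes tested were called. Nrxn3 and Cbln4 were lower in excitatory nuclei, and Nlgn1 and Cbln1 were higher. For Nrxn3, WT libraries ran from 904 over a median of 1171 to 2034 CPM in excitatory nuclei and from 12018 over 14703 to 17400 CPM in inhibitory nuclei, a log2 difference of -3.49 (SE 0.12, adjusted p = 4.9e-12). For Nlgn1 they ran from 5657 over 5933 to 6112 CPM in excitatory and from 1624 over 1984 to 2501 CPM in inhibitory nuclei, a log2 difference of 1.66 (SE 0.07, adjusted p = 2.7e-11). Neither pair of ranges overlapped, although the excitatory values of Nrxn3 lay within or below the range of the non-neuronal class means given above.

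The cerebellin calls rested on few UMIs. Cbln4 had 12 UMIs in excitatory and 75 in inhibitory WT nuclei, a log2 difference of -2.81 (SE 0.43, adjusted p = 6.9e-05), and its mean in inhibitory nuclei was 2.58 CPM with and 1.27 CPM without cluster 10. With finer clusters, which leave most of cluster 10 out of the inhibitory set, Cbln4 did not pass the filter on low counts. Cbln1 stood at 2.69 to 5.27 CPM in excitatory and at 0 to 3.08 CPM in inhibitory nuclei, a log2 difference of 0.99 (SE 0.27, adjusted p = 0.0082), and the ranges overlapped. That call was lost with coarser clusters (0.54, edgeR adjusted p = 0.125) and with finer clusters (0.52, edgeR adjusted p = 0.154). Cbln2 passed with finer clusters (0.54, edgeR adjusted p = 0.0256) and with no filter on low counts (0.38, edgeR adjusted p = 0.0359) but not otherwise, with 9.37 ± 1.95 CPM in excitatory and 7.91 ± 3.01 CPM in inhibitory nuclei (SD, n = 8). Neither set holds the unnamed clusters 3, 7 and 21. These held 30.4%, 11.5% and 5.34% of the WT Cbln2 UMIs, at mean levels of 41.3, 24.0 and 31.4 CPM. They also held 10.3%, 18.6% and 7.44% of the WT Cbln1 UMIs. Differences between these sets were 0.01 for Nrxn2, -0.10 for Nlgn2 and -0.07 for Nlgn3 on the log2 scale, with standard errors between 0.05 and 0.07, and none passed, save Nlgn2 with a direct gate on markers (-0.21, edgeR adjusted p = 0.0466).

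The partner genes, a list of 41 other genes of these families and their receptors, ligands, scaffolds and splicing factors, divided in the same comparison. Of 37 tested, 26 were called, where 37.8% of all genes were, 16 higher in excitatory and 10 higher in inhibitory nuclei. The genes named here are examples picked without a fixed rule. The neurexophilins, secreted ligands of neurexins, took opposite sides. Nxph1 and Nxph2 were lower in excitatory nuclei, with log2 differences of -5.14 (SE 0.14) and -3.35 (SE 0.17), whereas Nxph3 was higher at 3.10 (SE 0.32). The cerebellin receptor Grid1 was lower in excitatory nuclei at -0.63 (SE 0.06), and the neuroligin-binding Mdga1 was higher at 1.57 (SE 0.12). Gphn, the scaffold of inhibitory synapses that binds Nlgn2, was lower at -0.40 (SE 0.05).

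By pattern over the 17 classes, the genes most like each member were found among 11342 genes by Pearson's r of WT mean log2(CPM + 1), as a description of class means that share libraries. Nrxn2 was most like Dner (0.94), Tspoap1 (0.93) and Map7d2 (0.93). Nrxn3 was most like Gm48700 (0.94) and Gm48692 (0.93), which both lie within Nrxn3 on its strand and may share its UMIs, and then Gad1 (0.91). Nlgn1 was most like Ppp1r14c (0.88), Gpc5 (0.85) and Tox (0.81). The likest genes were Slc39a14 (0.94), Clip4 (0.90) and Rhobtb2 (0.89) for Nlgn2 and Clip2 (0.90), Cacng4 (0.89) and Elovl6 (0.86) for Nlgn3. For the sparse cerebellins they were Nudcd1 (0.81), Armc6 (0.81) and Zdhhc8 (0.80) for Cbln1, Sobp (0.85), Gnai1 (0.80) and Lmo1 (0.77) for Cbln2, and Lhx8 (0.81), Hexdc (0.80) and Prdm12 (0.80) for Cbln4. The likeness to Lhx8 takes cluster 10 as 1 class. Within it, the cholinergic-like finer cluster held 143 WT UMIs of Lhx8 and 0 of Cbln4. The unnamed finer cluster with most of its nuclei held 68.3 of Lhx8 and 41 of Cbln4. Between Nrxn3 and Nlgn1 the same r was -0.07 over the 17 classes.

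Het animals were then compared with WT animals, to ask which members changed with MYT1L deficiency. No member was called in any set by edgeR. In the sum over all nuclei 0 of 8 members passed, where 0% of 20083 genes passed and 10.2% had p under 0.05 before adjustment. In excitatory nuclei 0 of 7 tested members passed against 0.0143% of 13991 genes, of which 11.4% were under 0.05 before adjustment. Inhibitory nuclei gave 0 of 8 against 0% of 13897 genes, of which 8.28% were under 0.05 before adjustment. Of the members, 3 of 8 over all nuclei, 1 of 7 in excitatory and 2 of 8 in inhibitory nuclei were under 0.05 before adjustment. All of these were lower in Het animals. Over the 17 classes 0 of 78 pairs of member and class passed, against 8 of 109664 pairs for all genes (0.0073%), and 5 member pairs had an unadjusted p under 0.05, a share of 6.41% beside 5.97% for all genes. Members with too few UMIs in a set are not among those tested, such as Cbln4 in excitatory nuclei. The median log2 difference of the members was -0.12 over all nuclei, -0.13 in excitatory and -0.02 in inhibitory nuclei, beside -0.00062, -0.0048 and -0.0034 for all genes tested.

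**Figure D3:**
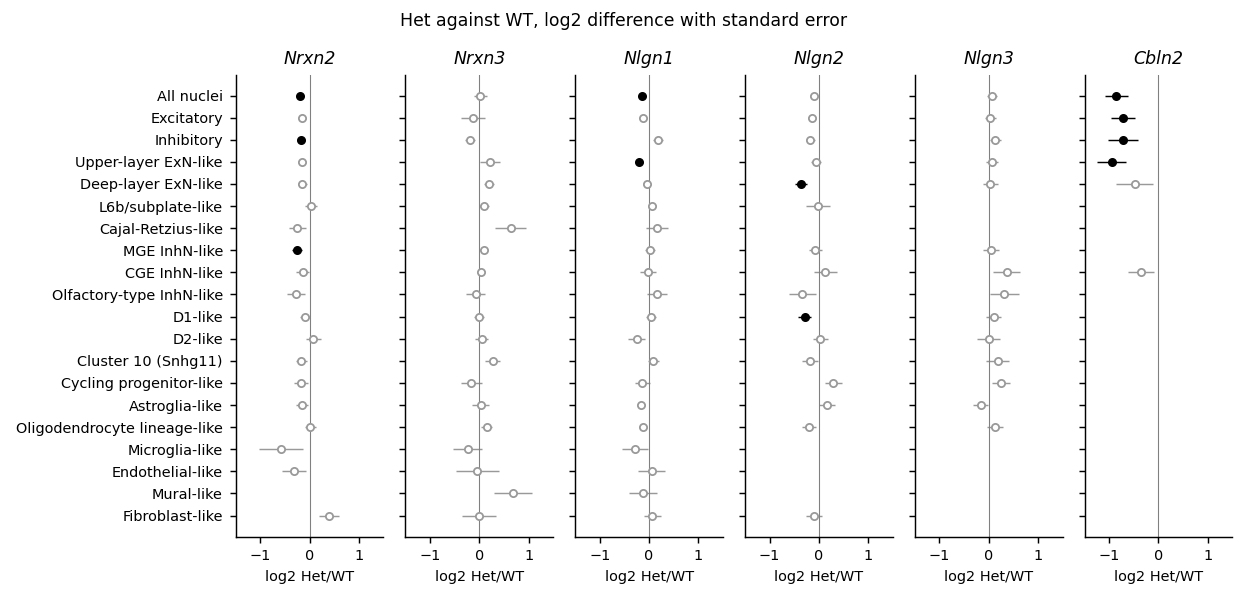
Log2 difference of Het against WT (x axis) with its standard error for 6 members in all nuclei, the excitatory and inhibitory sets and each class in which the member was tested (rows). Filled points have an unadjusted p under 0.05 and no point passes adjustment. Cbln2 lies below 0 in all 6 sets tested.

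Cbln2 showed the largest difference among the members. Over all nuclei, WT libraries ran from 8.37 over a median of 10.6 to 16.6 CPM, and Het male 1, male 2 and male 3 stood at 6.56, 3.96 and 5.64 CPM with Het female 1 at 10.5 CPM. The 3 Het males lay below every WT library and the Het female lay inside the WT range. The log2 difference was -0.85 (SE 0.23, edgeR adjusted p = 0.363). It passed by DESeq2 (adjusted p = 0.0447) and, without Het female 1, by edgeR (-1.15, adjusted p = 0.0454). With males alone, which also leaves out the 3 WT females at 16.6, 8.37 and 15.5 CPM, the Cbln2 log2 difference, Het against WT, All nuclei, was -1.04 (SE 0.16) and did not pass (edgeR adjusted p = 0.0556).

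In excitatory nuclei the Cbln2 values had the same layout. WT libraries ran from 6.59 over 9.48 to 12.1 CPM, the Het males stood at 5.35, 3.83 and 3.59 CPM and Het female 1 at 10.3 CPM, a log2 difference of -0.72 (SE 0.24, edgeR adjusted p = 0.311) that passed without Het female 1 (-1.07, edgeR adjusted p = 0.0108). In upper-layer ExN-like nuclei the difference was -0.95 (SE 0.30, edgeR adjusted p = 0.356), with WT libraries from 6.33 to 19.6 CPM and Het libraries at 5.89, 4.21, 3.39 and 13.5 CPM. It too passed without Het female 1 (-1.28, edgeR adjusted p = 0.0297). With males alone neither passed: the Cbln2 log2 difference, Het against WT, Excitatory, was -1.05 (edgeR adjusted p = 0.0502), and the Cbln2 log2 difference, Het against WT, Upper-layer ExN-like, was -1.13 (edgeR adjusted p = 0.0659). In inhibitory nuclei the groups overlapped, with WT libraries from 2.69 over 8.21 to 11.8 CPM and Het libraries at 6.28, 2.45, 5.95 and 3.61 CPM (-0.73, SE 0.30, edgeR adjusted p = 0.564).

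The makeup of the libraries moved with Cbln2. Cluster 6, the upper-layer cluster richest in Cbln2, made up 33.6% to 60.8% of upper-layer ExN-like nuclei in WT libraries and 20.5%, 12.8% and 14.3% in the Het males, against 45.5% in Het female 1. The clusters with a mean of at least 20 CPM of Cbln2 over the 12 libraries and at least 10 nuclei in every library were 3, 6, 7, 17, 21 and 33. Together these 6 clusters made up 19.0% to 30.9% of WT nuclei, 16.6%, 9.59% and 10.4% in the Het males and 20.9% in Het female 1. Cluster 32 stood at 47.9 ± 43.5 CPM of Cbln2 in 7 WT libraries and at 31.3 ± 15.1 CPM in 2 Het libraries, but had too few nuclei in the other libraries to be among them. With each cluster set to its mean level, this makeup alone gave a log2 difference of -0.44 over all nuclei, of -0.78 observed on the log2(CPM + 1) scale, and left -0.34 (exact permutation test, p = 0.077). In upper-layer ExN-like nuclei it gave -0.64 of -0.80 and left -0.16 (exact permutation test, p = 0.598). The part was smaller in the larger sets. In excitatory nuclei makeup gave -0.38 of -0.69 and left -0.32 (exact permutation test, p = 0.089). In inhibitory nuclei it gave -0.23 of -0.65 and left -0.42 (exact permutation test, p = 0.123). Upper-layer nuclei also made up 74.2% to 82.5% of excitatory nuclei in the Het males, 46.7% in Het female 1 and 35.1% to 70.7% in WT libraries. Fewer nuclei of a kind and less RNA in each cannot be told apart in a sum over nuclei.

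**Figure D4:**
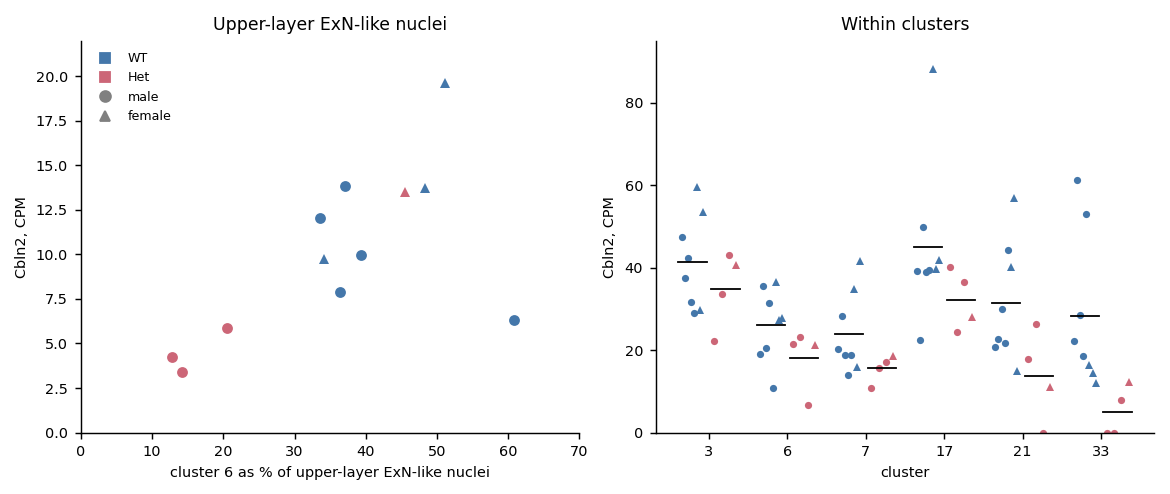
Left, Cbln2 in CPM (y axis) in upper-layer ExN-like nuclei of each library against the share of these nuclei in cluster 6 (x axis, %). Right, Cbln2 in CPM per library within the 6 Cbln2-rich clusters, with lines at the group means. The 3 Het males lie at the lower left with cluster 6 shares of 12.8% to 20.5%, and within clusters the groups overlap.

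Within these 6 clusters the ranges of WT and Het libraries overlapped, and no test is given, because the clusters were chosen by their Cbln2 level in the same libraries, most of them WT. In cluster 3, which held the most Cbln2, WT stood at 41.3 ± 11.4 CPM (SD, n = 8) and Het at 34.9 ± 9.32 CPM (SD, n = 4). The CGE InhN-like cluster stood at 45.0 ± 19.0 CPM in WT and 32.2 ± 7.33 CPM in Het animals. Cluster 21 stood at 31.4 ± 14.4 CPM in WT and 13.7 ± 11.1 CPM in Het animals. Cluster 6, the upper-layer cluster, stood at 26.1 ± 8.85 CPM in WT and 18.1 ± 7.61 CPM in Het animals, and cluster 7 at 24.0 ± 9.87 CPM and 15.5 ± 3.35 CPM. The means lay furthest apart in cluster 33, a deep-layer ExN-like cluster led by Tshz2, Etv1 and Fezf2, where WT libraries ran from 11.9 over 20.4 to 61.2 CPM and Het libraries stood at 0, 0, 7.79 and 12.2 CPM. These values rest on 29 UMIs in WT and 3 in Het nuclei, and clusters 6, 7, 21 and 33 had Het means under the limit of 20 CPM and met it through their WT libraries.

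For the neurexins the differences were smaller. Nrxn2 over all nuclei ran from 157 over 178 to 206 CPM in WT libraries and stood at 152, 161, 168 and 150 CPM in Het libraries, so that 2 Het libraries lay below every WT library (-0.20, SE 0.06, edgeR adjusted p = 0.381). The makeup of clusters gave -0.01 of an observed -0.16 on the log2(CPM + 1) scale and left -0.15 (exact permutation test, p = 0.036, not adjusted). Its fitted difference was -0.14 (SE 0.07) in excitatory and -0.18 (SE 0.08) in inhibitory nuclei, and -0.25 (SE 0.10, edgeR adjusted p = 0.633) in MGE InhN-like nuclei. Nrxn3 differed by 0.02 (SE 0.13) over all nuclei, by -0.13 (SE 0.24) in excitatory and by -0.18 (SE 0.10) in inhibitory nuclei. In excitatory nuclei the Het males stood at 817, 860 and 962 CPM of Nrxn3 and Het female 1 at 2066 CPM. Against the WT range of 904 to 2034 CPM, Het male 1 and male 2 lay below, Het male 3 inside and Het female 1 above. The makeup of clusters alone gave -0.39 for Nrxn3 in these nuclei and left 0.19 (exact permutation test, p = 0.119), and a direct gate on markers gave 0.23, so that its sign there depended on the setting.

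For the neuroligins, Nlgn1 over all nuclei ran from 3850 over 4042 to 4512 CPM in WT libraries and stood at 3834, 3863, 3717 and 3714 CPM in Het libraries, 3 of 4 below the WT range (-0.15, SE 0.05, edgeR adjusted p = 0.387). Its difference had opposite signs in the main neuron sets. In excitatory nuclei WT libraries ran from 5657 over 5933 to 6112 CPM and Het libraries stood at 5335, 5523, 4911 and 5864 CPM, with the 3 males below the WT range (-0.13, SE 0.06, edgeR adjusted p = 0.446). In inhibitory nuclei Het libraries stood at 2002, 2522, 2509 and 1998 CPM against 1624 to 2501 CPM in WT (0.18, SE 0.10, edgeR adjusted p = 0.686). The difference between these effects was -0.33 on the log2(CPM + 1) scale (exact permutation test, p = 0.030, adjusted over the 8 members 0.242). In excitatory nuclei the makeup of clusters alone gave -0.067 of an observed -0.13 on that scale and left -0.068 (exact permutation test, p = 0.107). In inhibitory nuclei it gave 0.18 of an observed 0.19 on that scale and left 0.01 (exact permutation test, p = 0.867). In upper-layer ExN-like nuclei Nlgn1 stood at 6224 to 6857 CPM in WT libraries and at 5430, 5649, 4973 and 6455 CPM in Het libraries (-0.20, SE 0.07, edgeR adjusted p = 0.428). Cluster makeup gave -0.12 of an observed -0.21 there. Nlgn2 in deep-layer ExN-like nuclei ran from 42.9 over 54.2 to 60.0 CPM in WT libraries and stood at 30.2, 41.8, 48.7 and 41.2 CPM in Het libraries, so that 3 of 4 lay below the WT range (-0.36, SE 0.12, edgeR adjusted p = 0.560). In D1-like nuclei its difference was -0.29 (SE 0.13, edgeR adjusted p = 0.667). Nlgn3 differed by 0.07 (SE 0.10) over all nuclei, 0.03 (SE 0.11) in excitatory and 0.14 (SE 0.10) in inhibitory nuclei.

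**Figure D5:**
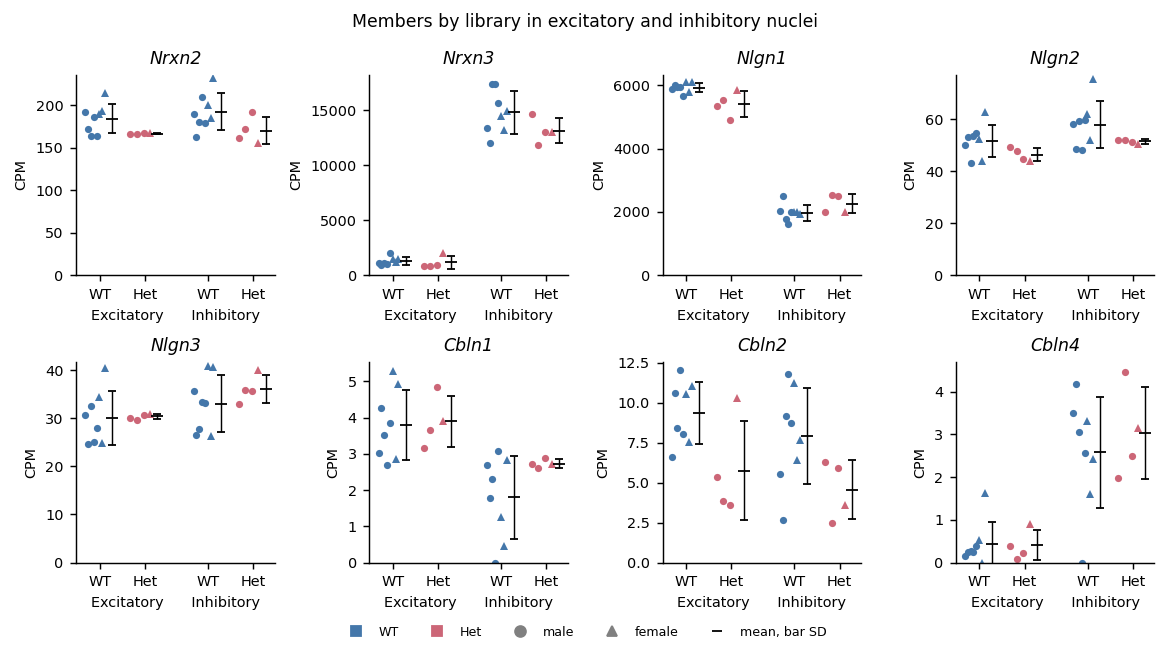
Level of each member in CPM per library in excitatory and inhibitory nuclei, WT in blue and Het in red, males as circles and females as triangles, with the group mean and SD beside the points. The Het males lie below the WT libraries for Cbln2 and Nlgn1 in excitatory nuclei, and the Het female lies inside the WT range for both.

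Cbln1 and Cbln4 had too few UMIs for a close comparison. Cbln1 over all nuclei ran from 3.03 over 3.63 to 7.09 CPM in WT libraries and stood at 2.85, 3.26, 4.57 and 4.05 CPM in Het libraries, which overlap (-0.16, SE 0.20). Cbln4 ran from 0.172 over 1.15 to 1.66 CPM in WT and stood at 0.944, 1.58, 0.862 and 1.64 CPM in Het libraries (0.27, SE 0.37). Both differences were smaller than the spread between libraries.

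Of the partner genes, 0 of 34 passed in excitatory nuclei and 11 were under 0.05 before adjustment, beside 11.4% of all genes. The 3 with the smallest p were Mdga1, which binds neuroligins, Dlg4, the scaffold PSD-95, and Clstn3, a postsynaptic partner of neurexins. Mdga1 ran from 65.2 over 95.2 to 105 CPM in WT libraries and stood at 146, 179 and 135 CPM in the Het males and 82.6 CPM in Het female 1 (0.62, SE 0.16, edgeR adjusted p = 0.237), and it passed with no filter on low counts (edgeR adjusted p = 0.0097). Dlg4 differed by -0.31 (SE 0.09) and Clstn3 by -0.33 (SE 0.10). Neo1, a receptor of Cbln4 named after its values were seen, ran from 279 over 360 to 447 CPM in WT libraries and stood at 485, 527 and 543 CPM in the Het males and 345 CPM in Het female 1 (0.42, SE 0.13, edgeR adjusted p = 0.279). Without Het female 1, 6 of 36 tested partner genes passed in excitatory nuclei, Mdga1 (0.80) and Neo1 (0.55) among them. The share of all genes that passed in this setting is not given here, so the 6 are not a result about the partner genes. Het female 1 is also the library whose cluster 6 share lay inside the WT range, and the part of the cluster makeup in these partner genes was not tested.

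In inhibitory nuclei 0 of 34 partner genes passed and 4 were under 0.05 before adjustment, beside 8.28% of all genes. The neurexophilin Nxph2 ran from 51.1 over 74.1 to 140 CPM in WT libraries and stood at 46.6, 28.8, 40.0 and 56.2 CPM in Het libraries (-0.87, SE 0.21, edgeR adjusted p = 0.334). Nxph1 ran from 2582 to 5328 CPM in WT libraries, above all 4 Het libraries at 2517, 1672, 2415 and 2546 CPM (-0.62, SE 0.17, edgeR adjusted p = 0.453). With no filter on low counts both passed (edgeR adjusted p = 4.89e-05 for Nxph2 and 0.000923 for Nxph1). Nxph2 also passed with sex and replicate number as a block (edgeR adjusted p = 0.0126), but replicate numbers did not pair the libraries. Lhfpl4, which holds GABA receptors with Nlgn2, differed by -0.21 (edgeR adjusted p = 0.547). The makeup of the inhibitory set moved with them. MGE InhN-like nuclei, in which Nxph1 is abundant, made up 24.5% to 60.9% of inhibitory nuclei in WT libraries and 23.5%, 15.4%, 21.7% and 24.0% in Het libraries, without overlap (exact permutation test, p = 0.053, adjusted over the 6 classes 0.158). D1-like nuclei made up 2.25% to 27.4% in WT and 24.9%, 31.6%, 25.2% and 31.6% in Het libraries (exact permutation test, p = 0.053, adjusted 0.158), and cluster 10 made up 4.35% to 22.8% and 10.2%, 26.1%, 24.9% and 13.5% (exact permutation test, p = 0.143, adjusted 0.182). The makeup of clusters alone gave -0.54 of an observed -0.60 for Nxph1 on the log2(CPM + 1) scale and left -0.057 (exact permutation test, p = 0.331). For Nxph2 it gave -0.65 of -0.86 and left -0.21 (exact permutation test, p = 0.107).

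Over the 17 classes 1 of 490 pairs of partner gene and class was called, Nxph1 in Cajal-Retzius-like nuclei, which was also the only call among the 3214 genes of that class (0.0311%). WT libraries ran from 39.6 over 49.6 to 79.3 CPM and Het libraries stood at 124, 227, 143 and 189 CPM, without overlap (1.55, SE 0.22, edgeR adjusted p = 0.0033). The call was lost when doublets were kept (1.29, edgeR adjusted p = 0.590), and the sign turned when nuclei were gated directly by markers (-1.44). Nxph1 is abundant in MGE InhN-like nuclei, and the summed level of the 7 MGE InhN markers in this class was 29.4 to 96.7 CPM in WT and 63.6 to 119 CPM in Het libraries, with 6 of 7 higher in the Het mean and none at 0 in every library. The 6 CGE InhN markers summed to 129 to 769 CPM in WT and 267 to 709 CPM in Het libraries, with 3 of 6 higher in the Het mean. For the 6 Cajal-Retzius markers the sums were 13171 to 22715 CPM and 19445 to 23211 CPM, with 5 of 6 higher. The part of MGE InhN-like nuclei in the Nxph1 call was not tested.

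Sex was compared within WT animals, because Nlgn3 is X-linked and only 1 Het animal was female. No member was called in all nuclei (0 of 8, against 0.0371% of 18890 genes by edgeR), and 0 of 8 had an unadjusted p under 0.05. Nlgn3 was 0.21 higher on the log2 scale in female WT libraries (SE 0.13), which did not pass, and its 3 female libraries at 36.7, 28.7 and 43.6 CPM overlapped the male range of 27.0 to 35.8 CPM. With 1 Het female, sex and the single animal cannot be told apart in the Het group.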

How the data were processed

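Single-nucleus libraries of 12 P1 forebrains were analysed from the deposited matrices. The authors aligned reads to mm10 and used the ScaleRna workflow to make expected counts of each gene in each nucleus. The deposited values are not all whole (6.58% to 6.88% of entries per library are divided), and how UMIs were divided is not stated there. The labels' processing notes name Seurat 4.3.0. The sources used here do not give how strand was used. The design had assumed whole counts, so sums were rounded before count models.

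The filter of the study was applied, which keeps 98111 of 126684 barcodes. It asks for 300 to 3000 genes and 800 to 6000 UMIs, of which mitochondrial genes hold 1% or less, and for log genes over log UMIs to reach 0.9 or more. Doublets were scored over all deposited barcodes, and those among the highest 5% per library were removed, which left 94893. Free RNA was not subtracted. Nuclei were clustered with leidenalg 0.10.2 (3000 variable genes, 50 components, 20 neighbours, Leiden resolution 1.5), leaving out the members and partner genes. Clusters were named from marker lists. The limits of a doublet score under 0.5 and of at least 1 own marker among the 50 leading genes were set after clusters were seen and left 6 clusters unnamed, with 2.04% of WT and 3.30% of Het nuclei. Classes with at least 10 nuclei in at least 3 libraries per genotype were tested.

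UMIs were summed per library and class and tested with edgeR 4.0.16 (quasi-likelihood, R 4.3.3), and DESeq2 1.42.0 was an alternative. Calls needed an adjusted p (Benjamini-Hochberg, over all genes tested) under 0.05 and a log2 difference of at least 0.2. The edgeR procedure was tested on simulated data. Single values were compared by exact permutation over libraries on log2(CPM + 1). Intervals and limits cover counting error only. Besides the 8 members and Myt1l, the text names the 3 genes most like each member (at least 20 CPM in 1 class). For Het against WT it names the partner genes called or, failing that, the 3 with the smallest p in excitatory and in inhibitory nuclei. Partner genes named between WT excitatory and inhibitory nuclei were picked without a fixed rule. Of 45 partner names, 41 were in the files. Members and lists were chosen with earlier results of these data known. Cluster makeup, the division of cluster 10, the Cbln2-rich clusters, the test of excitatory against inhibitory effects and the marker checks of the neuron sets were added after the data were seen. The values of 1 partner gene are not reported here.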

Additional observations from a re-analysis of the deposited data

Results flagged for a closer look

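In 4 of 48 groups of libraries tested with Dixon's criterion, 1 library lay apart from the rest, where chance gives about 1 in 20 groups. In excitatory nuclei Nrxn3 stood at 2066 CPM in Het female 1, against 962 CPM in the nearest Het library. In inhibitory nuclei Nlgn1 stood at 2501 CPM in WT male 2, against 2040 CPM in the nearest WT library. WT female 3 was the highest WT library both for Cbln1 over all nuclei (7.09 against 4.49 CPM) and for Cbln4 in excitatory nuclei (1.64 against 0.527 CPM).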

How the results depend on the processing

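For 53 differences of single genes, 1062 values under alternatives were computed. Of these, 1009 kept their direction and their side of the threshold, 3 lost a call, 18 gained one and 32 changed sign, 21 of the last by leaving out 1 library. The causes were not tested. The number of members called for Het against WT was 0 in each set and became 1 over the classes with no filter on low counts (Cbln2 in upper-layer ExN-like nuclei) and 1 over all nuclei with DESeq2. Leaving out 1 library gave 0 to 1 members in the classes, in excitatory nuclei and over all nuclei, with 1 only without Het female 1, and 0 to 6 partner genes in excitatory nuclei. Partner genes called in excitatory nuclei were 2 with males only and 1 with no filter, and in inhibitory nuclei 2 with no filter. The shares of all genes called under these alternatives are not given here, so the counts are not a result about the members or partner genes.

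Replicate numbers did not pair the libraries, since the deviations of same-numbered Het and WT libraries correlated at -0.15, 0.10, 0.043 and 0.22, and only Het female 1 correlated best with its own number. With the replicate block, 2 partner genes were called in excitatory and 1 in inhibitory nuclei, and the difference was -0.052 for Cbln4 over all nuclei, -0.0065 for Nlgn3 and -0.00069 for Cbln1 in excitatory nuclei and -0.24 for Cbln4 in inhibitory nuclei, each with its sign changed.

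Other changes of sign were -0.023 for Nrxn3 over all nuclei with males only, -0.0052 for Nlgn3 in excitatory nuclei with finer clusters, and, with a direct gate, 0.23 for Nrxn3 and -0.073 for Cbln1 in excitatory nuclei, -1.44 for Nxph1 in Cajal-Retzius-like nuclei and -0.093 for Nrxn2 between WT excitatory and inhibitory nuclei. With the cluster makeup held fixed, an alternative chosen after seeing the data, Nrxn3 in excitatory nuclei came to 0.19. Leaving out 1 library moved Nrxn3 from -0.040 to 0.078 over all nuclei and from -0.54 to 0.0074 in excitatory nuclei, Nlgn3 from -0.0012 to 0.089 and Cbln1 from -0.020 to 0.22 in excitatory nuclei, Cbln4 from -0.12 to 0.31 in inhibitory nuclei and Nrxn2 from -0.0069 to 0.025 between excitatory and inhibitory nuclei. Between WT sexes it moved Nrxn3 from -0.10 to 0.094, Nlgn1 from -0.059 to 0.012, Nlgn2 from -0.037 to 0.17 and Cbln4 from -0.46 to 0.61.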
